A study of Mus musculus with 31 samples.

Results

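The comparison described here set regulatory T cells (Tregs) taken from the spleen 0.75 h after an injection of mIL-2/CD25 (FP), a protein that joins murine IL-2 to CD25, against Tregs taken 0.75 h after an injection of PBS. Its members were chosen by the names of the columns in the deposited table of counts, 3 FP and 3 PBS libraries, which are 6 of the 31 ATAC-seq libraries of the series. ATAC-seq counts the places where a transposase cuts accessible DNA, so a count in a peak is a measure of how open that stretch of chromatin was. All mice were RFP-FoxP3+ reporter animals of the C57BL/6 strain, whose Tregs carry a red fluorescent protein by which they were sorted. FP mice received 20 µg of the fusion, IL2 mice of the same time received 5 µg of mouse IL-2 (3 libraries), and PBS mice received 100 µL. Sex, age and the number of mice behind a library are not stated in the labels, and the 2 technical replicates that the protocol mentions for each biological sample are not separate in the table. P-values therefore measure the spread between these libraries.

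IL-2 binds a receptor made of an alpha chain (CD25, encoded by Il2ra), a beta chain (Il2rb) and the common gamma chain (Il2rg), and Tregs carry CD25 at all times. The receptor activates the kinases JAK1 and JAK3, which phosphorylate STAT5A and STAT5B, and STAT5 dimers enter the nucleus and bind the palindrome TTCNNNGAA. In Tregs this pathway is known for holding up Foxp3 and CD25 and for survival. Cytokine inhibitors such as Cish, Socs1 and Socs2 are among its early target genes.

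The 6 libraries held 18.6 to 34.0 M counts (M, mega) over 104979 peaks, namely 34.0, 30.7 and 25.2 M in FP and 28.8, 18.6 and 23.0 M in PBS. A single peak on chromosome 1 (24611561-24615794, GRCm38) took 21.0%, 26.0% and 32.2% of the counts in FP and 32%, 22.3% and 30.0% in PBS. Without it, promoter-labelled peaks took 60.3% to 62.4% of the counts in FP and 61.3% to 62.8% in PBS. Peaks of Foxp3, Il2ra, Ctla4 and Ikzf2, which define Tregs, were present in all 6 libraries. No peak was assigned to Cd79b or Ms4a1 of B cells, to Ncr1 of natural killer cells, or to Csf1r, Adgre1, Ly6g, S100a8 or S100a9 of myeloid cells. Other genes of these lists did have tested peaks, 14 for B cells, 19 for natural killer cells and 22 for myeloid cells. Among them, the promoter peak of Cr2 of B cells averaged 8.30 ± 0.886 CPM in FP and 11.2 ± 4.37 CPM in PBS (SD, n = 3 each). The lists for CD8 T cells, conventional CD4 T cells and erythroid cells had 34, 63 and 34 tested peaks. In bulk chromatin, fewer cells with an open peak and less opening per cell cannot be told apart.

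Few peaks differed between FP and PBS at 0.75 h, and those that did were more open in FP. A peak passes the test here when its p, from edgeR's quasi-likelihood F test with Benjamini-Hochberg adjustment over all 100468 tested peaks, is below 0.05. By that measure 2 peaks rose (0.00199% of those tested) and 0 fell (0.0%). At an unadjusted p under 0.05, 2097 peaks were higher (2.09%) and 1062 were lower (1.06%). All 15 peaks with an adjusted p under 0.1 were higher in FP. DESeq2, run on the same counts, called 216 peaks higher and 6 lower, and limma voom called 0 in either direction. With the replicate number added as a block, edgeR called 128 higher and 2 lower. Levels are given as CPM, the counts scaled to a common library total with TMM factors, and fold changes as log2 of FP over PBS ± SE.

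Of the 2 peaks that rose, one lies on chromosome 13 (85502803-85503228, 426 bp) between genes, 13174 bp from the nearest annotated start, that of the predicted gene Gm47635. It held 16.8, 16.0 and 16.8 CPM in the FP libraries and 5.47, 4.81 and 4.00 CPM in the PBS libraries. The lowest FP library thus stood well above the highest PBS library. The log2 fold change was 1.80 ± 0.23 (edgeR adjusted p = 0.0175). The other peak that rose lies on chromosome 1 (106606895-106607640, 746 bp) and was assigned to Bcl2, which encodes an inhibitor of apoptosis. It held 21.3, 22.0 and 22.5 CPM in FP and 5.55, 7.94 and 6.88 CPM in PBS. Here too the groups did not overlap, and the 3 FP libraries lay close together. The log2 fold change was 1.69 ± 0.22 (edgeR adjusted p = 0.0175). The deposited label of this peak is promoter, but it is not at the Bcl2 start. In GENCODE M21 it falls inside an intron of Bcl2, 105539 bp from the nearest coding start, that of Bcl2, and 25 bp from the start of the predicted gene Gm37053. Across the 42 peaks assigned to Bcl2, in 27 separate regions, 5 had an unadjusted p under 0.05 and were higher (11.9%, against 2.09% of all tested peaks), 1 was lower (2.38%, against 1.06%), and the median log2 fold change was -0.03. The most abundant promoter-labelled peak of Bcl2 gave -0.10 ± 0.40. Leaving out 1 library changed this count: 0 peaks were called higher when FP library 1 or 2, PBS library 1, 2 or 3, or IL2 library 1 or 3 was left out, 2 without IL2 library 2, and 25 without FP library 3. Over 23 alternative settings, the log2 fold change of the Gm47635 peak stayed between 1.69 and 1.91 and that of the Bcl2 peak between 1.57 and 1.87.

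Both peaks hold the STAT palindrome 2 times. Their sequences are shown because they are the peaks that passed the test. Windows of 300 bases are printed 5′ to 3′ on the plus strand of GRCm38, read from the RefSeq GRCm38.p6 genome, and capitals mark each match to TTCNNNGAA.
Gm47635 peak, chr13:85502929-85503228: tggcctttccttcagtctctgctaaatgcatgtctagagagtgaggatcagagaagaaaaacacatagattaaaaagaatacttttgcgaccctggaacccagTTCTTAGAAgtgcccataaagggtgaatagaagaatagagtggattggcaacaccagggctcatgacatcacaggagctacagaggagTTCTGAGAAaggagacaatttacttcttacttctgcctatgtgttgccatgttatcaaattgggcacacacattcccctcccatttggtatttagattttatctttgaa
Bcl2 peak, chr1:106606975-106607274: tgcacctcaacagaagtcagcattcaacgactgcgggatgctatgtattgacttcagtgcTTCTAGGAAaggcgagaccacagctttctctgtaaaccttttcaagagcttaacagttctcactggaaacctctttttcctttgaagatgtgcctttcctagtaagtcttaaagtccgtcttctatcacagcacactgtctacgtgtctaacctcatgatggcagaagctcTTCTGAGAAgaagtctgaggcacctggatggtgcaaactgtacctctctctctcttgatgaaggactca

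The next peaks by p did not pass the threshold, and their values follow as a description. The rule that named the 12 higher peaks of lowest p also required every FP library above every PBS library. That held in 4.81% of all tested peaks. A peak in an intron of Sema4d, a semaphorin of lymphocytes, labelled promoter and 323 bp from an annotated start, held 10.7, 7.6 and 10.9 CPM in FP and 1.42, 2.79 and 2.56 CPM in PBS. Every FP library was above every PBS library, at a log2 fold change of 2.12 ± 0.31 (edgeR adjusted p = 0.0553). A peak 6985 bp from Cd2, an adhesion receptor of T cells, held 12.5, 10.1 and 11.8 CPM in FP and 3.98, 4.09 and 3.21 CPM in PBS, without overlap (1.61 ± 0.25, edgeR adjusted p = 0.0553). An intronic peak of Cdk6, a kinase of the G1 phase, held 26.9, 26.7 and 18.1 CPM in FP and 8.49, 6.59 and 9.81 CPM in PBS. The FP libraries were again all above the PBS libraries (1.53 ± 0.24, edgeR adjusted p = 0.0553). A second intronic Cdk6 peak held 57.7, 46.6 and 45.6 CPM in FP and 24.8, 23.8 and 24.0 CPM in PBS (1.05 ± 0.18, edgeR adjusted p = 0.108). Among the 37 peaks of Cdk6, in 22 regions, 3 had an unadjusted p under 0.05 and were higher (8.11%, against 2.09% of all tested peaks) and 2 were lower (5.41%, against 1.06%), with a median of 0.01. An intronic peak of Sept9, a septin of the cytoskeleton, held 3.74, 4.42 and 2.57 CPM in FP and was nearly closed in PBS, at 0.459, 0.577 and 0.186 CPM. Its log2 fold change of 3.12 ± 0.49 was the highest of the 12 higher peaks of lowest p (edgeR adjusted p = 0.0553).

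The other peaks described of these 12 were a peak 54193 bp from Ccdc80, an extracellular matrix protein (1.56 ± 0.24), an intronic peak of Fhit (1.57 ± 0.24) and an intronic peak of Reps1, a protein of endocytosis (2.09 ± 0.33). A further pair were a peak assigned to Flacc1, labelled promoter (1.86 ± 0.27), and one near the predicted gene Gm2116 (1.23 ± 0.20). Their edgeR adjusted p ran from 0.0553 to 0.0686. In GENCODE M21 the Flacc1 peak falls inside an intron of the gene named Als2cr12 there, 308 bp from the start of Gm20257. The nearest coding start, that of Als2cr12, is 38717 bp away. Each of the 12 held at least 1 match to TTCNNNGAA. Bases around one match in 8 of them are shown so that the spacer and flanks can be compared, on the plus strand of GRCm38 with the match in capitals.
Sema4d, chr13:51776462-51776500: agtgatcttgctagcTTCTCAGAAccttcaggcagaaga
Cd2, chr3:101273088-101273126: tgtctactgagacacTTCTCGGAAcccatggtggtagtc
Cdk6, chr5:3478045-3478083: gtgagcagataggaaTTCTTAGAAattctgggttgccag
Sept9, chr11:117321965-117322003: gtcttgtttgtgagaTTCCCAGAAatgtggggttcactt
Ccdc80, chr16:45038696-45038734: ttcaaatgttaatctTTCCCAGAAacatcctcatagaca
Reps1, chr10:18102841-18102879: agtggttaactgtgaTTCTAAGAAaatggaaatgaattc
Flacc1, chr1:58652189-58652227: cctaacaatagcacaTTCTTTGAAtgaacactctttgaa
Fhit, chr14:10467470-10467508: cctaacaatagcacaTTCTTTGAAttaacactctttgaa

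**Figure D1:**
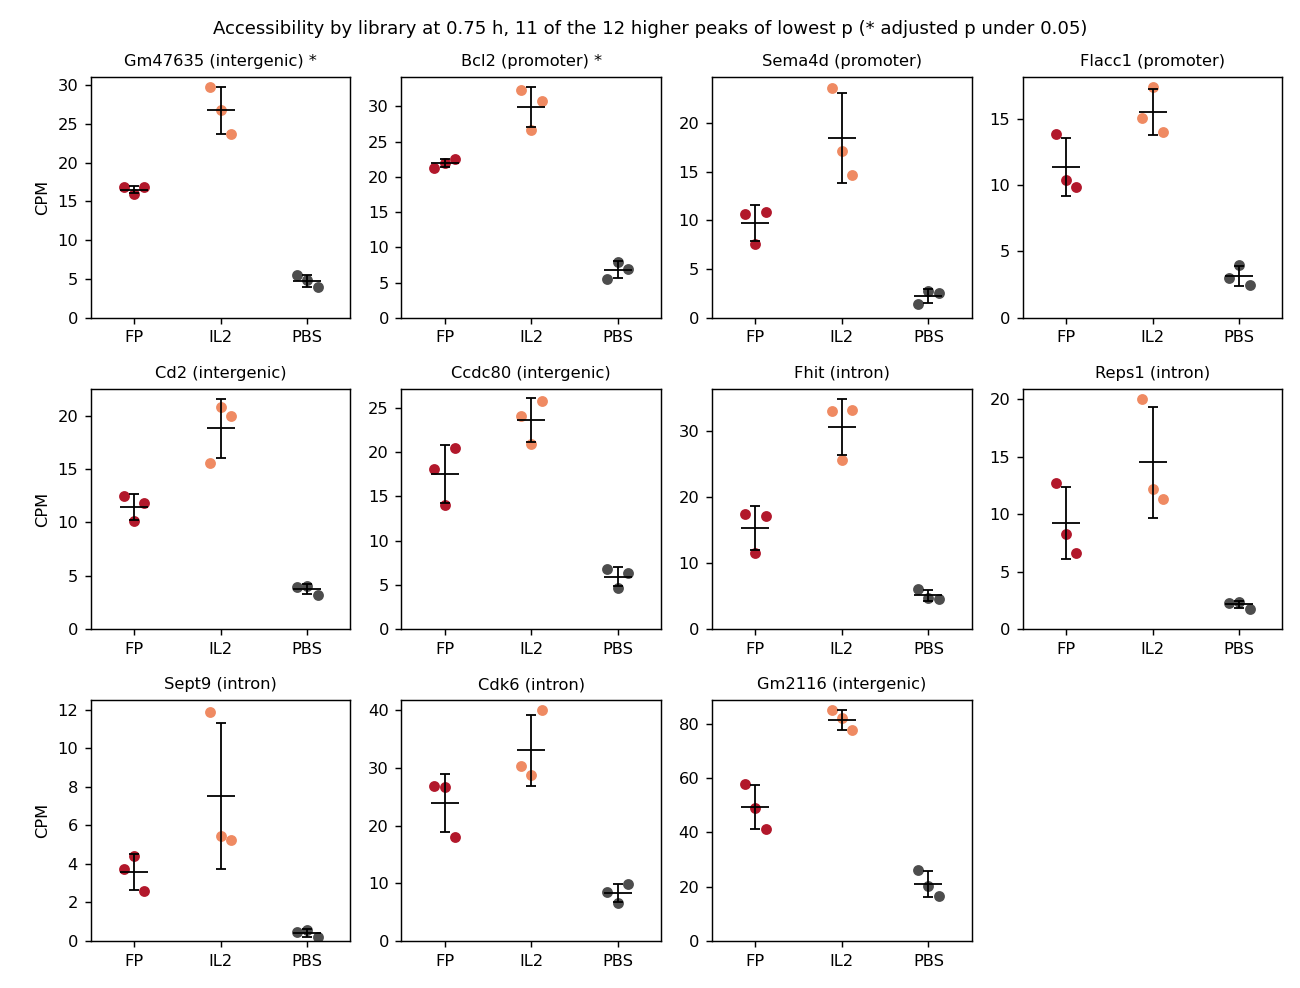
Each panel plots the CPM of one of 11 of the 12 higher peaks of lowest p in the 3 FP, 3 IL2 and 3 PBS libraries at 0.75 h, with the mean and SD. Every FP library sits above every PBS library in each panel, as the rule that named these peaks required. The mean of the IL2 libraries is above that of the FP libraries in each. The asterisk marks the 2 peaks with an adjusted p under 0.05.

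The Flacc1 and Fhit stretches are nearly the same DNA. These peaks lie on different chromosomes and share an unbroken run of 41 bases. A run of 32 bases shared with a peak elsewhere was found in 28.0% of the 100 higher peaks of lowest p, in 15% of the 100 lower peaks of lowest p and in 9.32% of all tested peaks. Gm47635, Sema4d, Flacc1 and Fhit were the ones with such a run among the 12. How reads with several matches were handled is not given in the sources used here, and the part of shared runs in these values was not tested.

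No peak passed the test in the lower direction. The 8 described next had the lowest p among lower peaks with a mean log2 CPM of at least 1 and groups that do not overlap, 1 per gene. The first, in an intron of the predicted gene Gm20139, held 9.67, 15 and 14.5 CPM in FP and 31.8, 28.5 and 24.6 CPM in PBS. All FP libraries were below all PBS libraries, as that rule required and as in 3.63% of all tested peaks (-1.12 ± 0.24, edgeR adjusted p = 0.221). A peak near Gm9522 was almost closed in FP, at 0.0559, 0.871 and 0.214 CPM, against 4.74, 2.98 and 6.55 CPM in PBS (-3.61 ± 0.82, edgeR adjusted p = 0.288). It shared a 32-base run with a peak elsewhere, and so did the A630001G21Rik peak named next. The rest of these 8 were near Focad and Mir3965, in introns of A630001G21Rik, Wwox and Ldlrad4, or named for Nav1 by the depositors. GENCODE M21 places the Nav1 peak in an intron of the predicted gene Gm38399. Log2 fold changes of the rest ran from -1.76 to -1.13 and edgeR adjusted p from 0.337 to 0.571. Only the Ldlrad4 peak, of these 8, held a STAT match, whereas 24.0% of the 50 lower peaks of lowest p did. Those 50 lay in 32 separate regions, and the 100 lower peaks of lowest p in 74. Peaks of a shared region overlap, so shares of these lower peaks can count the same DNA more than once.

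The STAT palindrome was common among the higher peaks and uncommon among the lower ones. Of the 100 higher peaks of lowest p, 89.0% held TTCNNNGAA, against 17.0% of the 100 lower peaks of lowest p and 13.8% of all tested peaks. Peaks of 400 to 1000 bp outside promoters held it in 22.8% of cases. The stricter form TTCCNGGAA was present in 14.0% of the higher peaks, 0.0% of the lower peaks and 1.93% of all peaks. The form TTCTNAGAA stood in 45.0% of the 100 higher peaks and in 2.71% of all peaks, and TTCTNGGAA or its reverse complement TTCCNAGAA in 37.0% and 3.13%. Matches with other middle letters were present in 37.0% and 7.26%, and a peak can hold several forms. Each named form reads the same on both strands or was counted together with its complement. In the 89 higher peaks with a match, the one nearest the middle of the peak was a median of 48.0 bp from it, and 51.7% lay within 50 bp. Over all 13834 tested peaks with a match the median was 104 bp and the share 27.9%. The median width was 708 bp in those 89 and 590 bp in all peaks with a match.

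**Figure D2:**
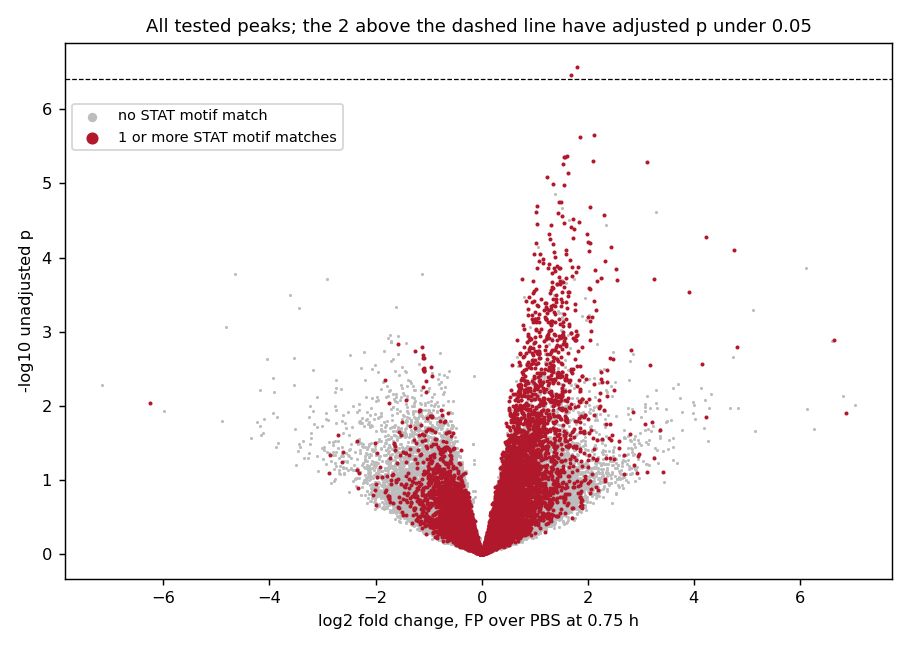
The plot sets the log2 fold change of FP over PBS at 0.75 h (x axis) against -log10 of the unadjusted p (y axis) for all 100468 tested peaks, with peaks that hold a STAT motif match in red. Only 2 peaks lie above the dashed line, and red points fill the upper right but not the upper left.

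Down the ranking the share declined slowly. It was 83.0% among higher peaks 101 to 200, 78.3% among higher peaks 201 to 500, 58.2% to rank 1000 and 44.9% to rank 2000. Higher peaks 10001 to 20000 held the palindrome in 15.4% of cases, close to the 13.8% of all peaks. Among lower peaks it was 24.0% for the first 50 and between 7.00% and 11.2% in every later class. At an unadjusted p under 0.05, 1185 of the 2097 higher peaks held a match, as did 111 of the 1062 lower peaks.

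**Figure D3:**
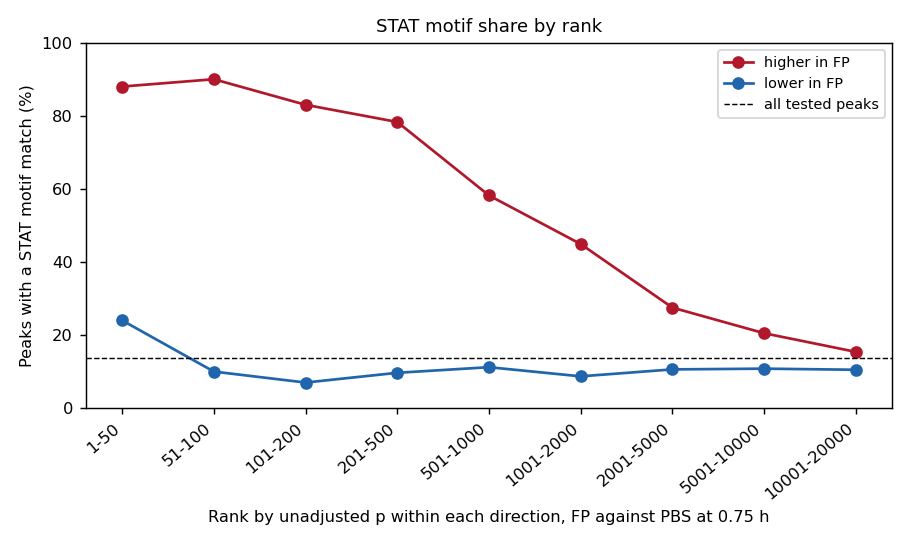
The plot gives the percentage of peaks with a STAT motif match (y axis) by rank of unadjusted p (x axis), for peaks higher in FP (red) and lower in FP (blue) than in PBS, with all tested peaks as a dashed line at 13.8%. The red line starts at 88.0% and comes down to 15.4%, while the blue line stays at or below 24.0%.

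Other motifs showed smaller differences, and they are set here against peaks of 400 to 1000 bp outside promoters. The letters TCAAAG (TCF/LEF) stood in 63.0% of the 100 higher peaks and 42.0% of those peaks, AGATAA (the GATA factors) in 40.0% and 30.4%, TGGAAA (NFAT) in 54.0% and 45.4%, and TGANTCA (AP-1) in 30.0% and 23.4%. For TGTGGTT (RUNX) the shares were 28.0% and 22.6%, and for TGTTTAC (forkhead) 10.0% and 10.0%. Lower in the higher peaks were GGGNNNTCC (NF-kB) at 13.0% and 23.4% and the CTCF motif at 6.00% and 11.7%. The IRF motif stood in 9.00% of the higher peaks, 25% of the 100 lower peaks (in 74 separate regions) and 12.6% of those peaks. ETS (CCGGAAGT), E-box (CACGTG) and CRE (TGACGTCA) letters were in 1.00%, 7.00% and 0.0% of the higher peaks and in 1.78%, 11.0% and 1.04% of those peaks. All were searched on both strands, and the TCF/LEF, NFAT, AP-1 and IRF motifs can share bases with a STAT match.

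Outside promoters, the log2 fold change was larger in peaks with more matches. The median log2 fold change of those peaks was 0.00 with no match (61370 peaks), 0.12 with 1, 0.36 with 2 and 0.54 with 3 or more (197 peaks). In the same order, 1.24%, 8.27%, 22.8% and 38.6% had an unadjusted p under 0.05 and were higher. Promoter-labelled peaks had smaller values, with medians of -0.01, 0.03, 0.07 and 0.16 and shares of 0.598%, 2.46%, 8.67% and 13.0%. Peaks with more matches were also wider, from a median of 312 bp with none to 720 bp with 3 or more outside promoters, and the part of width in this order was not tested.

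**Figure D4:**
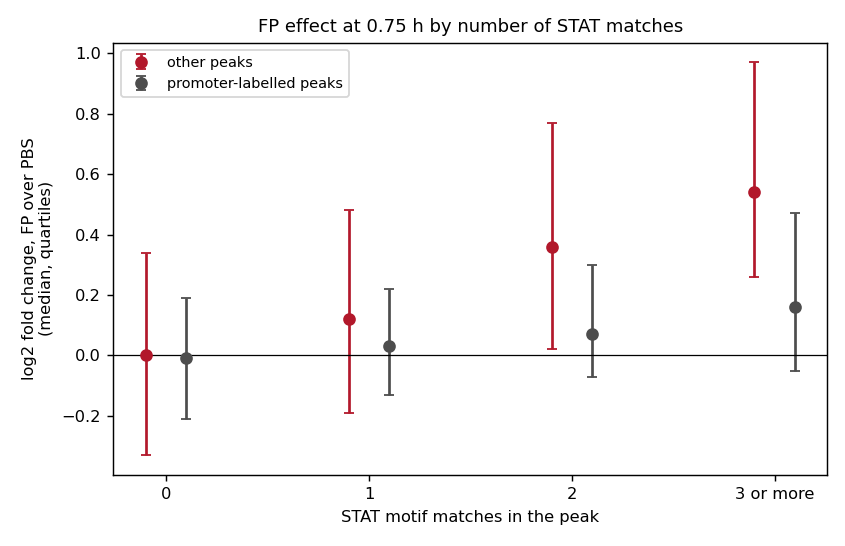
Points give the median log2 fold change of FP over PBS at 0.75 h (y axis) and bars the quartiles, by the number of STAT motif matches in the peak (x axis), for peaks outside promoters (red) and promoter-labelled peaks (grey). The red medians climb from 0.00 to 0.54 and the grey ones from -0.01 to 0.16.

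The higher peaks of lowest p lay away from promoters. Of the 100 of lowest p, 51 were labelled intron, 30 intergenic and 10 promoter, whereas 28.9% of all tested peaks are labelled promoter. They fell in 92 separate regions, with a median width of 684 bp and a median GC content of 43.1%, against 379 bp and 49.0% over all tested peaks. An unadjusted p under 0.05 with higher values was reached by 2.88% of intron, 2.25% of intergenic and 0.944% of promoter-labelled peaks.

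Genes of the IL-2 receptor pathway were examined next, through a list of 14 genes with 117 tested peaks. None passed the test, 7 (5.98%, against 2.09% of all tested peaks) had an unadjusted p under 0.05 and were higher and 1 (0.855%, against 1.06%) was lower, and the median was -0.05, near the 0.01 of all tested peaks. The 28 of these peaks with a STAT match had a median of 0.56, and the rest one of -0.14. Il2ra, the CD25 gene, had 24 peaks with a median of 0.67, and 13 of them held a match. Of the 24, 5 were higher at an unadjusted p under 0.05 (20.8%, against 2.09% of all tested peaks). The 24 lie in 15 regions and those of a shared region overlap, so they are not separate sites. Single peaks named from the lists were often those of lowest p, which favours groups without overlap. Every FP library was above every PBS library in 4.81% of all tested peaks. An intronic Il2ra peak with 2 matches held 3.52, 2.97 and 3.76 CPM in FP and 1.11, 1.49 and 1.63 CPM in PBS. Its groups did not overlap (1.28 ± 0.42, edgeR adjusted p = 1.0). The most abundant Il2ra peak outside the promoter, which holds no match, gave -0.39 ± 0.22. For Il2rb, the beta chain, a peak 7115 bp from the start held 9.08, 8.62 and 6.71 CPM in FP and 3.14, 6.06 and 2.14 CPM in PBS, again without overlap (1.11 ± 0.34, edgeR adjusted p = 0.863). An intronic peak of Stat5b, one of the 2 STAT5 genes, held 1.76, 1.95 and 0.599 CPM in FP and 2.79, 6.26 and 2.28 CPM in PBS (-1.37 ± 0.51, edgeR adjusted p = 1.0). The FP libraries were all lower, but PBS library 2 alone was above 3 CPM.

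Known IL-2 and STAT5 target genes (26 genes, 300 peaks) included the Bcl2 peak that rose, 17 peaks higher (5.67%) and 6 lower (2.00%) at an unadjusted p under 0.05, and a median of 0.12. Both shares were above those of all tested peaks, 2.09% higher and 1.06% lower. Cish, which feeds back on cytokine receptors, had 6 peaks, all with a match, with a median of 0.59. Its most abundant promoter peak holds 4 matches, 2 of them TTCCNGGAA. It measured 7.24, 11.4 and 9.83 CPM in FP and 5.24, 8.85 and 4.88 CPM in PBS. The groups overlapped, and the log2 fold change was 0.59 ± 0.30 (edgeR adjusted p = 1.0). Lta, encoding lymphotoxin alpha, had a promoter peak at 8.55, 7.21 and 10.5 CPM in FP and 4.97, 4.38 and 1.16 CPM in PBS (1.31 ± 0.40, edgeR adjusted p = 0.91). It was the only promoter peak with an unadjusted p under 0.05 among the most abundant promoter peaks of 30 genes of the pathway and of Treg biology. That is 3.33% of them, against 0.944% of all promoter-labelled peaks that were higher at that p. Those 30 had a median of -0.05, and the most abundant other peaks of 27 of these genes had a median of 0.07. Of the 27, 5 were higher (18.5%) and 1 lower (3.7%) at that p, against 2.09% and 1.06% of all tested peaks.

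In the Treg identity list (14 genes, 211 peaks), 13 peaks were higher (6.16%) and 2 lower (0.948%) at an unadjusted p under 0.05, against 2.09% and 1.06% of all tested peaks, and none passed the test. The 45 peaks with a match had a median of 0.56 and the others one of -0.02. Il2ra is in both this list and that of the IL-2 receptor pathway, so its 13 peaks with a match enter both medians. A narrow intronic peak of Nt5e, which encodes the CD73 ectoenzyme, held 3.13, 1.62 and 1.24 CPM in FP and 0.268, 0.144 and 0.186 CPM in PBS, without overlap (3.28 ± 0.58, edgeR adjusted p = 0.11). An intronic Nrp1 peak, of the neuropilin on thymic Tregs, held 2.74, 3.12 and 2.82 CPM in FP and 1.57, 0.385 and 0.511 CPM in PBS (1.79 ± 0.47, edgeR adjusted p = 0.514). The FP values were close together and all higher. The intronic Foxp3 peak with 3 matches held 13.2, 12.7 and 9.83 CPM in FP and 12.2, 8.85 and 7.85 CPM in PBS. Those groups overlapped (0.30 ± 0.24, edgeR adjusted p = 1.0).

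Among genes of resting T cells (14 genes, 327 peaks), 21 peaks were higher (6.42%) and 11 lower (3.36%) at that p, with a median of -0.01. Both shares exceeded the 2.09% and 1.06% of all tested peaks. An intronic peak of Bach2, a repressor that restrains effector differentiation, holds the strict form TTCCNGGAA 3 times. It measured 27.8, 27.5 and 24.2 CPM in FP and 13.8, 12.9 and 12.0 CPM in PBS, without overlap (1.03 ± 0.20, edgeR adjusted p = 0.152). That is the 1 peak of the 57 of Bach2 that was higher at an unadjusted p under 0.05 (1.75%, against 2.09% of all tested peaks). The median of the 57 was -0.13. An intronic peak of Lef1, a partner of TCF1, gave 2.14 ± 0.45 (edgeR adjusted p = 0.212).

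NF-kB and TNF receptor genes (18 genes, 147 peaks) had 7 higher peaks (4.76%, against 2.09% of all tested peaks) and 2 lower (1.36%, against 1.06%), with a median of 0.09. The leading one was labelled a promoter of Nfkb1, but in GENCODE M21 it falls inside an intron, 568 bp from an annotated start. It was the only peak of the 15 with an adjusted p under 0.1 that held no STAT match. It measured 16.0, 11.3 and 13.0 CPM in FP and 5.01, 5.68 and 4.79 CPM in PBS, without overlap (1.38 ± 0.23, edgeR adjusted p = 0.0939). The most abundant promoter-labelled peak of Nfkb1, which overlaps an annotated start, gave -0.32 ± 0.34. An intronic peak of Birc3, an inhibitor of apoptosis, gave 1.07 ± 0.26 with 2 matches (edgeR adjusted p = 0.388). Phosphatases and PI3K genes (14 genes, 184 peaks) had 5 higher (2.72%) and 1 lower (0.543%), led by an intronic Inpp4b peak at 1.09 ± 0.27 (edgeR adjusted p = 0.393). Trafficking receptors and integrins (15 genes, 115 peaks) had 2 higher (1.74%) and 1 lower (0.870%), with a median of -0.15 and an intronic Itga4 peak at 1.12 ± 0.28 (edgeR adjusted p = 0.448). In the remaining lists between 0 and 6 peaks were higher and between 0 and 4 lower at that p. Effector Treg genes had 1 higher and 1 lower of 146 peaks (0.685% each). T cell receptor signalling had 6 (1.95%) and 4 (1.3%) of 308, near the 2.09% and 1.06% of all tested peaks. The mTOR and metabolism list had 0 and 0 of 111, and constitutive genes 1 (2.13%) and 0 (0.0%) of 47. AP-1 and immediate early genes had 1 higher (0.885%) and 4 lower (3.54%) of 113, the lower share being above the 1.06% of all tested peaks. Cell cycle genes had 4 higher (3.10%) and 3 lower (2.33%) of 129, and interferon response genes 3 higher (3.95%) and 1 lower (1.32%) of 76.

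For markers of other cells, the counts higher and lower were 0 and 0 of 14 peaks for B cells, 0 and 0 of 34 for CD8 T cells, 1 and 0 of 19 for natural killer cells, 0 and 0 of 22 for myeloid cells and 0 and 1 of 63 for conventional CD4 T cells. The single natural killer peak is 5.26% of its list and the single CD4 T cell peak 1.59%, against 2.09% higher and 1.06% lower over all tested peaks. Summed levels of these lists overlapped between FP and PBS. Erythroid markers were the exception. Their 34 peaks, in 11 regions, summed to 103 to 159 CPM in FP and 79.9 to 97.3 CPM in PBS. The median log2 fold change was 0.44, and 1 peak was higher at an unadjusted p under 0.05 (2.94%). That peak, at the 3' end of the beta-globin gene Hbb-bt, held 10.5, 7.42 and 11.5 CPM in FP and 2.83, 3.46 and 3.67 CPM in PBS (1.56 ± 0.29, edgeR adjusted p = 0.115), and it holds a STAT match. Hbb-bt has 17 of the 34 peaks, in 2 regions, and their median log2 fold change of FP over PBS was 0.46. Of these 17, 16 were higher in FP than in IL2 at an unadjusted p under 0.05, against 1.99% of all tested peaks. The median log2 difference of FP minus IL2 was 1.28, and the 3' end peak was lower in FP. Peaks of a shared region overlap and can count the same reads. The 17 are thus not separate sites, and sums over the list can count reads more than once. Alas2, Hba-a2 and Hbb-bs of that list had no tested peak, and the part of erythroid chromatin in other results was not tested.

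The IL2 group of the same time allows a direct test of FP against IL2, at doses of 20 µg and 5 µg by weight. No peak differed by edgeR's quasi-likelihood F test with Benjamini-Hochberg adjustment (0 of 100468, 0.0%), and 3677 had an unadjusted p under 0.05 (3.66%). DESeq2 called 6 peaks and limma voom 0. For each of the 12 higher peaks of lowest p the edgeR adjusted p of this difference was 1. In each of the 12 the FP mean was the lower one. The Gm47635 peak held 16.8, 16.0 and 16.8 CPM in FP and 29.7, 26.8 and 23.7 CPM in IL2, without overlap, at a log2 difference of FP minus IL2 of -0.69 ± 0.22. The Bcl2 peak held 21.3, 22.0 and 22.5 CPM in FP and 32.3, 26.7 and 30.7 CPM in IL2 (-0.45 ± 0.21). Across the 12, that difference ran from -1.07 for Sept9 to -0.43 for Ccdc80. Of the 100 higher peaks of lowest p, 97 were lower in FP than in IL2, with a median of -0.64, and 53 of them had an unadjusted p under 0.05 in that direction, which 1674 of all tested peaks had (1.67%). Set against the shared PBS libraries, the same 100 peaks had a median log2 fold change of 1.55 with FP and 2.18 with IL2. At the intronic Foxp3 peak FP held 13.2, 12.7 and 9.83 CPM and IL2 17.4, 19.2 and 21.2 CPM, without overlap (-0.69 ± 0.24, unadjusted p = 0.0102, edgeR adjusted p = 1).

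Libraries of later times had PBS groups of their own. Each later fold change set FP against the PBS group of its time. It came from a fit of all 31 libraries, so the 0.75 h libraries entered its filter, scaling and estimate of spread. These later times rest on titles and column names alone, because the protocol text attached to all 31 samples mentions sorting at 0.75 h. Of the 100 higher peaks of lowest p, 99 were higher in FP than in PBS at 16 h, with a median of 1.38, and 88 had an unadjusted p under 0.05. Of all tested peaks, 48.5% were higher at 16 h and 3.25% were so at that p. At 72 h the median was 0.55, with 91 higher against 50.2% of all tested peaks, and at 168 h it was -0.05, with 47 higher against 51.3%. The 100 lower peaks of lowest p, in 74 separate regions, had medians of -0.18, 0.07 and -0.15 at these times. At 16 h 19 of them were lower at an unadjusted p under 0.05, against 2.24% of all tested peaks. The Gm47635 peak gave 2.12 ± 0.35 at 16 h, 0.58 at 72 h and -0.26 at 168 h, and the Bcl2 peak 1.95 ± 0.30, 1.16 and 0.60. The FP effect at 16 h minus that at 0.75 h passed the test at 0 of 104520 peaks (0.0%) by edgeR's quasi-likelihood F test, with 3677 at an unadjusted p under 0.05 (3.52%). DESeq2 called 2 and limma voom 0. For Gm47635 that difference was 0.34 and for Bcl2 0.27. Time coincides with the date in the sample labels, so the date and the time cannot be told apart in it.

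The reverse view starts from 115 peaks called higher with FP at 16 h (0.114% of 100771 tested there). At 0.75 h 101 of them (87.8%) had an unadjusted p under 0.05 and were higher, against 2.09% of all tested peaks, and 0 were lower. In 93 of them (80.9%) every FP library was above every PBS library, which was so in 4.81% of all tested peaks. Their median log2 fold change at 0.75 h was 1.01, and both peaks that passed the test at 0.75 h were among them. Summed over the 115, accessibility was 2420, 2070 and 1850 CPM in the FP libraries at 0.75 h, 3200, 2780 and 3010 CPM in IL2, and 1220, 1150 and 1060 CPM in PBS. The 3 groups did not overlap, and FP lay between the other two. A STAT match was present in 93.9% of them, and the 7 peaks without one had a median of 0.93 at 0.75 h.

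**Figure D5:**
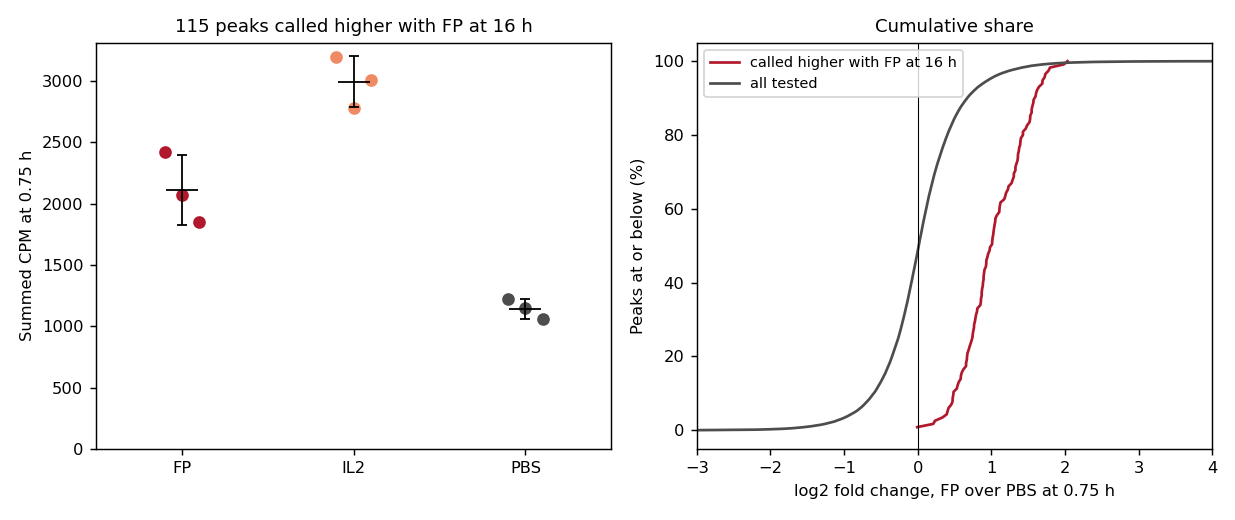
Left, the summed CPM at 0.75 h of the 115 peaks called higher in FP at 16 h, by library with the mean and SD, at 1850 to 2420 in FP, 2780 to 3200 in IL2 and 1060 to 1220 in PBS. Right, the cumulative share of peaks by log2 fold change of FP over PBS at 0.75 h, where the median of the 115 peaks is 1.01 and that of all tested peaks 0.01.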

How the data were processed

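ATAC-seq libraries of mouse spleen Tregs were analysed from one deposited table. Mapping to GRCm38 (mm10) used BWA and peak calling MACS2 2.1.2, per the submitters' processing notes and the design text of the series, and peaks were kept by their irreproducible discovery rate between 2 pseudo-replicates. The sources used here do not give the read counter, the duplicate filter or how one peak set was made. The authors deposited whole-number counts per peak and library, with no normalization. The first count column is shifted by commas in 9561 gene names, so fields were taken from the right end of each line (0 columns unmapped).

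Groups came from the sample titles, and columns were matched to them. At 0.75 h the FP, IL2 and PBS libraries (9 in all) were fitted together with 1 coefficient per group, TMM factors and the filter filterByExpr at its minimum count of 10 and minimum total of 15, in edgeR 4.0.16 (R 4.3.3), whose quasi-likelihood F test was used. Two-sided p took the Benjamini-Hochberg adjustment across every tested peak, and 0.05 was the threshold. The biological coefficient of variation was 43.3% with 6 residual degrees of freedom, and library totals ran from 18.6 to 34.0 M counts. The effect at 16 h minus that at 0.75 h, and the fold changes at 16, 72 and 168 h, came from a joint fit of all 31 libraries. The 115 peaks called higher with FP at 16 h came from a fit of the 16 h libraries alone. Alternatives used DESeq2 1.42.0 and limma 3.58.1 (voom). Python 3.11.15, pandas 2.3.3, numpy 2.4.6 and matplotlib 3.10.9 made the tables and plots. The procedure was tested on simulated data.

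Peak sequences came from the RefSeq GRCm38.p6 genome and start sites from GENCODE M21. Peak labels and gene names are those deposited. Named peaks were those past the threshold, the 12 higher and 8 lower peaks of lowest p with a mean log2 CPM of at least 1 and groups that do not overlap, the most abundant promoter and other peak of 30 panel genes, and up to 3 peaks of lowest p per list. Nfkb1, the second Cdk6 and Bcl2 peaks and peaks of single genes counted in full were named after their values were seen where no rule took them. The comparison, its lists, motifs and rules were chosen with earlier results of these data known. A few genes and peaks are not reported here.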

Additional observations from a re-analysis of the deposited data

How the results depend on the processing

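The number of peaks higher in FP than in PBS at 0.75 h, 2, was the same with DESeq2 size factors in edgeR, with TMM on promoter-labelled peaks and without the most abundant peak. It was 5 with library totals, 16 with cyclic loess offsets, 10 with no filter, 19 with a mean log2 CPM of at least 1 (fewer peaks tested) and 14 with one peak per merged region. It was 0 with only the groups compared, with all 31 libraries, with limma voom, with counts summed per gene, and with the library total as a covariate, an alternative chosen after seeing the data. DESeq2 called 216 higher and 6 lower. With one library left out, the count ran from 0 to 25 for higher and from 0 to 1 for lower peaks, 1 being called lower without FP replicate 1. The cause of these differences was not tested.

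With the replicate number as a block, 128 peaks were called higher, 2 lower and 0 between FP and IL2. Same-numbered FP and PBS libraries deviated together with r = 0.00379, 0.242 and 0.192 across peaks. FP library 1 correlated best with PBS library 2, at only 0.0612. FP libraries 2 and 3 correlated best with the PBS library of their own number. The crossed pairs gave -0.184 (FP library 2 with PBS library 3) and -0.235 (FP library 3 with PBS library 2). The main fit did not pair the samples by number, and whether same-numbered libraries share an effect was not tested. FP minus IL2 and the effect at 16 h minus that at 0.75 h gave 0 peaks in all settings, one library left out included (from 0 to 0), except 6 and 2 by DESeq2. Of the 39 peaks followed through the alternatives, which are not all of the named ones, the intronic Foxp3 peak changed sign, to -0.00 with the library total as a covariate, and the others did not. The STAT share of the higher peaks of lowest p was 14.0% with TTCCNGGAA and 89.0% with TTCNNNGAA, and for TTCNNNGAA 88.0% in the first 50 and 86.0% in the first 200. Counts summed per gene gave no value for single peaks. A spread of 43.3% between libraries of a group limits what 3 libraries can show.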
